A study of Rattus norvegicus with 4 samples.

Results

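The enzymes that carry carbon from HMG-CoA to cholesterol were examined in the oxyntic mucosa of rats given octreotide LAR. The members, in pathway order, were Hmgcs1, Mvd, Idi1, Fdps, Fdft1, Sqle, Lss, Cyp51 and Dhcr7, and every probe set whose platform annotation named one of these 9 genes was taken. A probe set named 8 of them, out of 10411 genes named in the deposited table. Hmgcs1, the cytosolic HMG-CoA synthase, was not analysed here. The 8 genes had 12 probe sets, with a pair each for Idi1, Fdft1, Lss and Cyp51.

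The animals were female Sprague-Dawley rats, 8 weeks old per the labels, fasted overnight before the mucosa of the gastric corpus was scraped off and frozen. The treated group received octreotide LAR, the slow-release depot form of the somatostatin analogue octreotide, at 5 mg per animal, and was sampled at 21 days. RNA of its 6 animals was pooled in pairs onto 3 Affymetrix RAE230A chips, called pools 1 to 3. The vehicle group received the LAR vehicle for the same time, and RNA of its 8 animals was pooled onto 1 chip. The vehicle value of each gene is therefore a single measurement whose error cannot be estimated. The title of the vehicle sample gives vehicle, while its source name also mentions octreotide LAR.

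Cholesterol is built from acetyl units through mevalonate, the isoprenoid diphosphates, squalene and a series of sterols. The genes of the pathway are classical targets of the transcription factor SREBP-2, which is released to the nucleus when membrane sterol is low, so that in many cells they move together. The stomach uses sterol in the large membranes of its acid-secreting parietal cells and in its rapidly renewed surface epithelium.

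The deposited table gave linear signals for 15866 probe sets, and the median signal was between 223.7 and 233.4 on the treated chips, against 225.85 on the vehicle chip. Markers of the labelled tissue were bright. Atp4b, a subunit of the gastric proton pump, had between 35704.6 and 42462.4 on the treated chips, against 39973.9 on the vehicle chip, and Pgc, a pepsinogen of chief cells, had between 48189.4 and 61846 on the treated chips, against 56280.8. Signals were compared as log2(signal + 16), so each difference below is octreotide LAR minus vehicle on that scale. The 9520 probe sets with a mean signal of at least 149.7 were tested with limma, 3 chips against 1, and p-values were adjusted by the Benjamini-Hochberg method over all of them. At an adjusted p under 0.05, 7 probe sets were higher (0.0735%) and 1, that of Hdc, was lower (0.0105%). The median log2 difference over the 7152 genes tested, each by its brightest probe set, was -0.0010.

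None of the 11 tested probe sets of the pathway passed the threshold, where 0.0840% of all probe sets did, and all had a limma adjusted p of 0.9998. The genes lay on both sides of the vehicle chip. Cyp51, Dhcr7 and Sqle were above the vehicle chip on all 3 treated chips, with mean log2 differences of 0.40, 0.33 and 0.38. Mvd was below it on all 3, at -0.45, though on pool 2 by no more than -0.015. Idi1, Fdps, Fdft1 and Lss had treated values on both sides of the vehicle value. Lss, whose step lies between those of Sqle and Cyp51, had a mean log2 difference of 0.03. The plot of signals by chip shows this order of members.

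**Figure D1:**
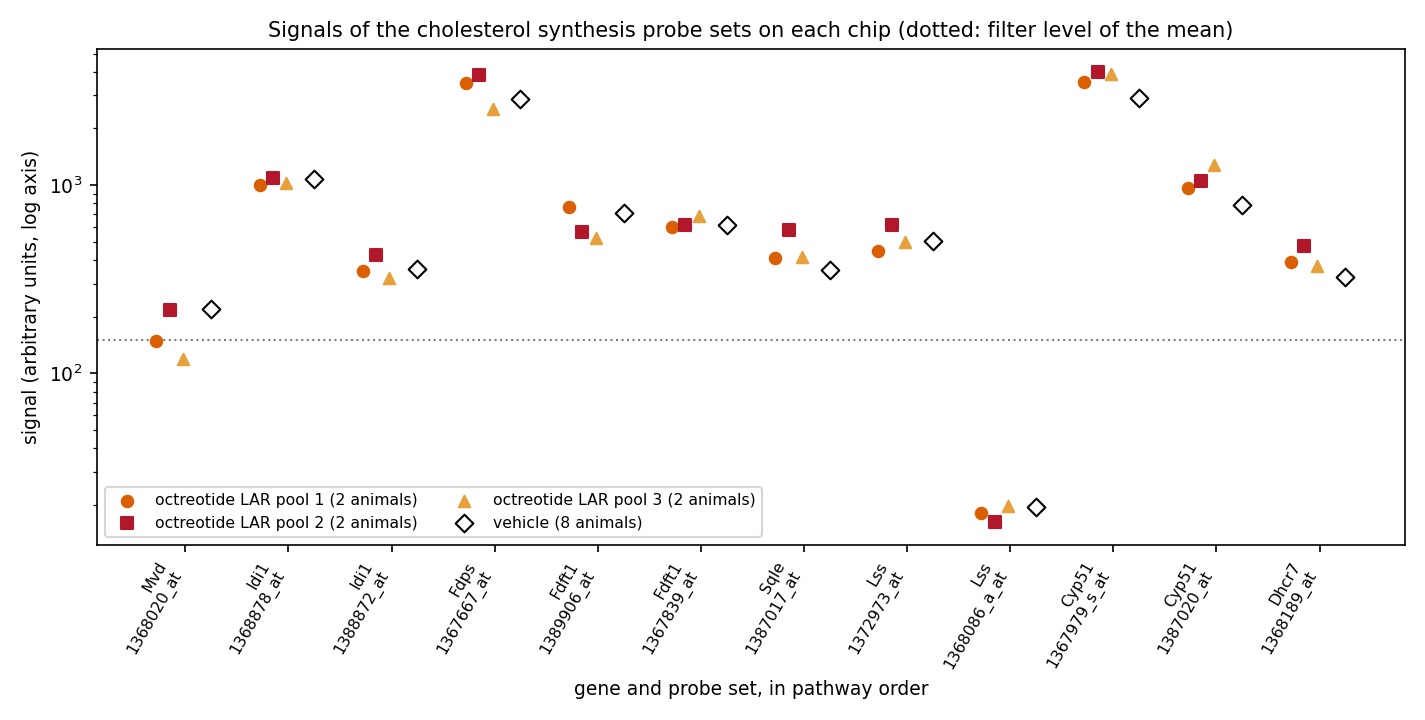
Signal of each of the 12 probe sets (x axis, in pathway order) on each chip (y axis, arbitrary units, log scale); filled points are octreotide LAR pools of 2 animals, open diamonds the vehicle pool of 8 animals, and the dotted line the filter level of 149.7 for the mean of the chips. Both Cyp51 probe sets, Sqle and Dhcr7 have all 3 treated points above the diamond, Mvd has them below it, and the second Lss probe set lies under 20 on every chip.

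The bases before the annotated start are shown for the genes at both ends of this range, as the sites where SREBP-2 and its partners would be sought. Each line gives the 250 bases upstream of the RefSeq start in the GRCr8 assembly, read 5′ to 3′ on the gene's strand, with capitals for GC boxes (GGGCGG, or CCGCCC on the other strand) and CCAAT boxes (CCAAT or ATTGG).
Mvd (chr19:67414975-67415224, minus strand): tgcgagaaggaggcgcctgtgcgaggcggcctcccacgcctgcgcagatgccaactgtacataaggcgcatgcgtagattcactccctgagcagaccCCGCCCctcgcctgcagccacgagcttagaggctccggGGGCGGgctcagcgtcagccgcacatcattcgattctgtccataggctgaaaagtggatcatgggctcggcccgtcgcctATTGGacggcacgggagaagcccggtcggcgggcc
Cyp51 (chr4:30991443-30991692, plus strand): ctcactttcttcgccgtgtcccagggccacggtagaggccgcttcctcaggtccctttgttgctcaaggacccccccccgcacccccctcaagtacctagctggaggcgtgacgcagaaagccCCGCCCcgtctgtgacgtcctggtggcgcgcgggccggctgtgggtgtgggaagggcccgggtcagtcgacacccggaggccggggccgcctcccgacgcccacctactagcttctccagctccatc
Dhcr7 (chr1:208444184-208444433, plus strand): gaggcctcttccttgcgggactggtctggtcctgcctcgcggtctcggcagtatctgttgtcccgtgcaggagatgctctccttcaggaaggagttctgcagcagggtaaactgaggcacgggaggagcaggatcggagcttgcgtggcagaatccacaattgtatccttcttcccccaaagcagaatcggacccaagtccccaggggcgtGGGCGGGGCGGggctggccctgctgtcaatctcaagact

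GC boxes are the letters bound by Sp1, and CCAAT boxes those bound by NF-Y, factors that act beside SREBP on many sterol promoters. Of the 8 measured members, 6 had an entry in the promoter table, the others being Fdft1 and Sqle. A GC box, on either strand, was found in 5 of the 6, where 30.5% of all 33469 upstream windows of this length held one; Idi1 was the member without. A CCAAT box was found in 4 of the 6 (Mvd, Idi1, Fdps and Lss), against 34.0% of all windows. The windows of Idi1 and Fdps held 2 CCAAT boxes each, those of Mvd and Lss held 1 each, and those of Cyp51 and Dhcr7 held none. Any link between these boxes and the direction of the differences was not tested. The 2 GC box matches of Dhcr7 overlap by a base, at 39 and 34 bases before the start. The strict sterol regulatory element TCACNCCAC, searched on both strands, was in none of the 6 windows and in 1.0% of all. These are matches of letters in a window and say nothing of binding.

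Mvd, mevalonate diphosphate decarboxylase, makes isopentenyl diphosphate, the first isoprenoid unit. Its probe set 1368020_at had signals of 148.1, 217.4 and 118.5 on octreotide LAR pools 1, 2 and 3, with 219.9 on vehicle. Pool 2 was level with the vehicle chip, and pools 1 and 3 were under it. The treated mean was 161.3 ± 50.8 (SD, n = 3), a log2 difference of -0.45 (95% interval -1.34 to 0.44; limma adjusted p = 0.9998). Mvd was the dimmest member tested, with pools 1 and 3 under the filter level of 149.7, and its interval was the widest. Without pool 2 the difference of Mvd was -0.67, and without pool 3 it was -0.27. Of all genes tested, 10.5% had a larger absolute difference.

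Idi1, isopentenyl diphosphate isomerase, interconverts the isoprenoid units that the next enzyme joins. Probe set 1368878_at had 999.1, 1088.8 and 1031.7 on pools 1, 2 and 3, with 1072.5 on vehicle, a log2 difference of -0.04 (95% interval -0.46 to 0.37). The second probe set, 1388872_at, had 348.9, 425.1 and 319.3 on the treated pools, against 358.9, a log2 difference of 0.01 (95% interval -0.56 to 0.58). The treated values lay around the vehicle value in both, and by the first probe set the difference of Idi1 was -0.017 without pool 1 and -0.078 without pool 2. Idi1 was among the steadiest members, with 84.7% of all genes tested farther from vehicle.

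Fdps, farnesyl diphosphate synthase, makes the farnesyl unit at which the routes to sterols, dolichol, ubiquinone and prenylated proteins part. Its probe set 1367667_at had 3480.3, 3831.7 and 2545 on pools 1, 2 and 3, with 2881.1 on vehicle. Pools 1 and 2 were above the vehicle chip and pool 3 was below it. The mean was 3286 ± 665 (SD, n = 3), a log2 difference of 0.17 (95% interval -0.30 to 0.63). The difference of Fdps was 0.047 without pool 2 and 0.34 without pool 3. The RefSeq gene table of GRCr8 lists 5 entries named as Fdps pseudogenes, and 1 each for Idi1 and Cyp51, and whether transcripts of these copies reach the probes was not tested.

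Fdft1, squalene synthase, commits farnesyl units to sterols. Its probe sets differed in their pattern. Probe set 1389906_at had 768.2, 566.8 and 525.4 on pools 1, 2 and 3, with 711.8 on vehicle, a log2 difference of -0.21 (95% interval -0.75 to 0.32), which was -0.37 without pool 1 and -0.11 without pool 3. Probe set 1367839_at had 596.5, 617.2 and 681.4 on the treated pools, against 617.4, a log2 difference of 0.03 (95% interval -0.43 to 0.49). Pool 1 was the highest treated pool by the one and the lowest by the other, so the order of the pools for Fdft1 depends on the probe set.

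Sqle, squalene epoxidase, adds the oxygen that opens the sterol branch and is one of the rate-limiting steps of the pathway. Its probe set 1387017_at had 410.5, 579.1 and 413.5 on pools 1, 2 and 3, with 352 on vehicle. All treated pools were above the vehicle chip, and pool 2 stood well above the others. The mean was 467.7 ± 96.5 (SD, n = 3), a log2 difference of 0.38 (95% interval -0.19 to 0.95; limma adjusted p = 0.9998). Without pool 2 the log2 difference of Sqle was 0.22.

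Lss, lanosterol synthase, folds oxidosqualene into the first sterol. Its probe set 1372973_at had 445.5, 616.5 and 497.2 on pools 1, 2 and 3, with 505.2 on vehicle, a log2 difference of 0.03 (95% interval -0.50 to 0.56). Pool 2 alone exceeded the vehicle chip, and without it the difference of Lss was -0.10. The other probe set, 1368086_a_at, had 18.1, 16.2 and 19.8 on the treated pools, against 19.6 on the vehicle chip. It was the member probe set left out by the filter, with a level too dim to compare.

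Cyp51, the cytochrome P450 that removes the methyl group at carbon 14 of lanosterol, was above vehicle by both of its probe sets. Probe set 1367979_s_at had 3550.1, 4002.2 and 3873.4 on pools 1, 2 and 3, with 2887.4 on vehicle. All treated pools were above the vehicle chip by more than the spread between them. The mean was 3809 ± 233 (SD, n = 3), a log2 difference of 0.40 (95% interval 0.04 to 0.75; limma unadjusted p = 0.032, adjusted p = 0.9998). Probe set 1387020_at had 966.1, 1055.5 and 1281 on the treated pools, against 781.8 on the vehicle chip, a log2 difference of 0.48 (95% interval 0.02 to 0.94; limma unadjusted p = 0.044, adjusted p = 0.9998). Pool 2 was the highest by the first probe set and pool 3 by the second. Both were designed on the same sequence record, so they are not independent measures of the gene. They were the 2 of 11 tested member probe sets with an unadjusted p under 0.05, a level that 4.62% of all probe sets reached. Of all genes tested, 14.1% differed from vehicle by more than Cyp51.

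Dhcr7, 7-dehydrocholesterol reductase, makes cholesterol in the last step. Its probe set 1368189_at had 391.8, 474.9 and 374 on pools 1, 2 and 3, with 323.2 on vehicle. Again all treated pools were above the vehicle chip, with pool 2 the highest. The mean was 413.6 ± 53.9 (SD, n = 3), a log2 difference of 0.33 (95% interval -0.22 to 0.88; limma adjusted p = 0.9998).

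**Figure D2:**
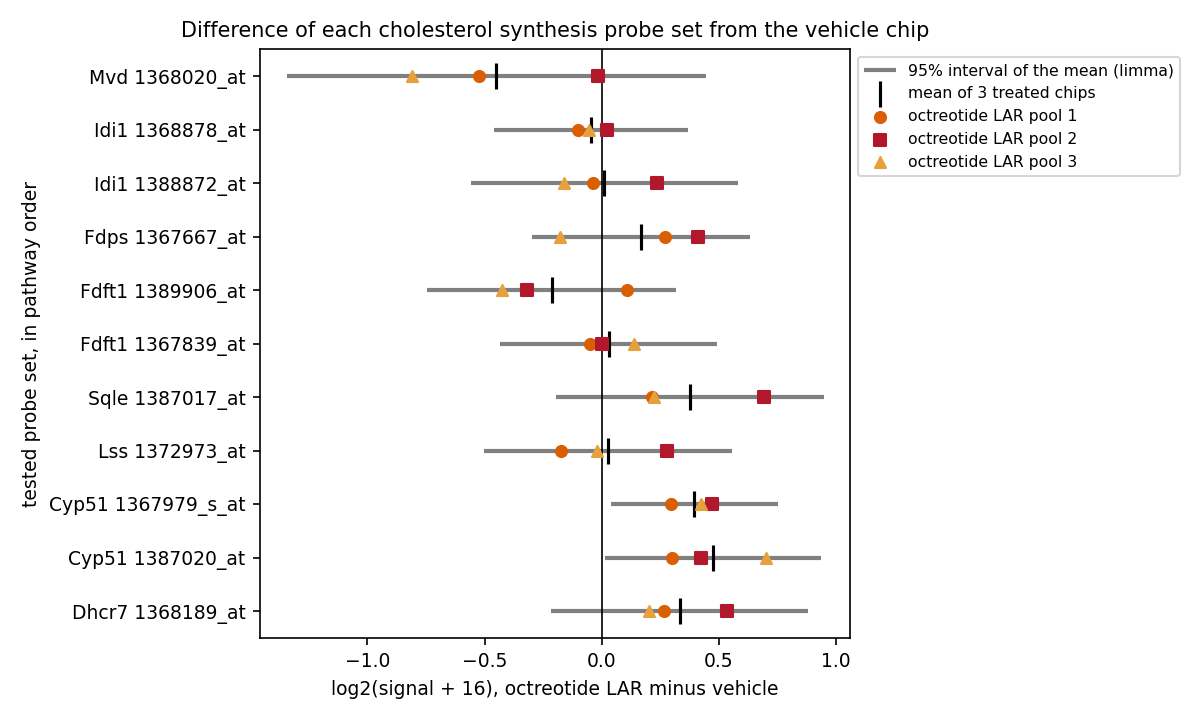
Difference of each tested probe set from the vehicle chip on the log2(signal + 16) scale (x axis), in pathway order from top to bottom; coloured points are the octreotide LAR pools, black bars their mean, and grey lines the 95% interval from limma. The intervals of both Cyp51 probe sets lie above 0, at 0.04 to 0.75 and 0.02 to 0.94, and those of all others include 0.

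Counted over probe sets, 4 of the 11 tested lay above the vehicle chip on all treated chips, against 25.0% of all probe sets, and 1 lay below it on all, against 24.0%. Over genes, by the brightest probe set, 3 of 8 were above on all treated chips, where 25.2% of all genes were, and 1 of 8 was below, where 24.0% were. These shares are near the background, as is the count of members with a treated mean above vehicle, 5 of 8, where 49.8% of all genes had one. The median log2 difference of the 8 genes was 0.10, beside -0.0010 for all genes tested, and it was -0.016 without pool 2 and 0.20 without pool 3. The median absolute difference was 0.27 for the members and 0.16 for all genes tested. The 95% intervals, which are not adjusted for the number of probe sets tested, reached between 0.36 and 0.89 on either side of the means. They included 0 for every member but Cyp51, and no member passed after adjustment. With 3 chips against 1, the lack of a call does not show that a member was unchanged.

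**Figure D3:**
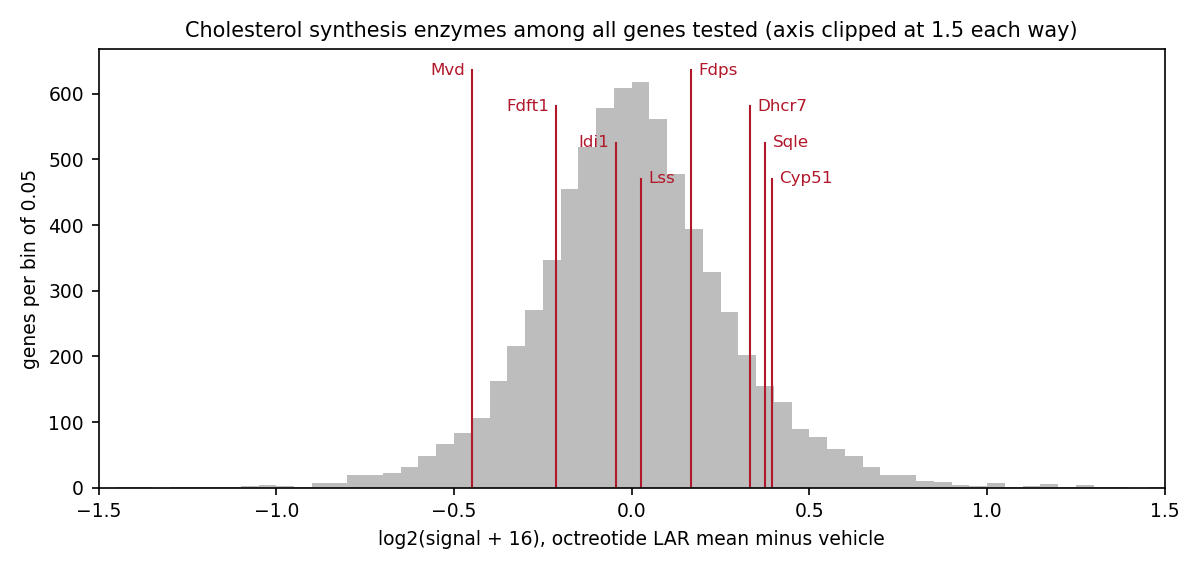
Histogram of the log2 difference, octreotide LAR mean minus vehicle (x axis), over the 7152 genes tested (y axis, genes per bin); red lines mark the 8 members by their brightest probe set. Mvd at -0.45 and Dhcr7, Sqle and Cyp51 at 0.33 to 0.40 lie on the slopes of the distribution, and Idi1 and Lss lie near its centre.

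The treated pools differed among themselves in these genes. Pool 2 was the highest of the 3 treated pools for 7 of the 8 members, Fdft1 being the exception, where pool 2 was the highest for 33.0% of all genes tested. The median log2 difference of the members from vehicle was 0.16 on pool 1, 0.34 on pool 2 and -0.04 on pool 3. For all genes tested these medians were -0.00049, -0.00058 and 0.012. Pool 2 exceeded the mean of pools 1 and 3 by 0.65 on the log2 scale for Mvd, 0.48 for Sqle, 0.38 for Lss, 0.36 for Fdps and 0.30 for Dhcr7. For Cyp51 and Idi1 the excess was 0.11 and 0.10, and for Fdft1 it was -0.16. Each pool is a single chip of 2 animals, so animal and chip cannot be told apart.

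Genes of keratinising squamous epithelium, the lining of the neighbouring forestomach, were higher on the same treated chips. Of 12 squamous markers 11 were above vehicle on all treated chips and 5 passed the threshold, all higher, while the remaining marker, Sbsn, was below vehicle on all of them without passing. Their summed signal was 10952.7, 8343.1 and 7286.3 on pools 1, 2 and 3, with 3336 on vehicle, and none was at 0. They were highest on pool 1 for 10 of the 12, whereas 7 of the 8 members of the sterol pathway were highest on pool 2. The 4 markers of enterochromaffin-like cells, the histamine-storing endocrine cells, summed to between 7045.6 and 7490.8 on the treated chips, against 14787.6 on the vehicle chip, and only Hdc of these passed. The 4 hepatocyte markers summed to 661.1, 1232.5 and 1032.4 on pools 1, 2 and 3, against 1297.6, and the 3 adipocyte markers on the chip to 466.4, 252.9 and 228.9, against 322. Summed over 3 surface mucous markers the signal was between 114548 and 120734 on the treated chips, against 105766, over 5 parietal markers between 69834 and 82617.7, against 78298.8, and over 5 pancreatic acinar markers between 2976.3 and 3561.8, against 5126.6. Of the 5 parietal markers, by the brightest probe set, 4 were lower in the mean and none passed. Kcnq1 and Kcne2 were below vehicle on all treated chips (log2 differences -0.58 and -0.37), and the others overlapped with it. A dimmer Kcne2 probe set overlapped too. The 4 chief cell markers summed to between 82794.8 and 89508.1 on the treated chips, against 102378. Cym, chymosin, had 3952.1, 8203.8 and 7560.9 on pools 1, 2 and 3, with 19071.1 on vehicle (log2 difference -1.60, limma adjusted p = 0.097). Of the others, Pgc and Pga5 overlapped with vehicle (log2 differences -0.03 and -0.14), and Cblif was slightly below it on all treated chips (-0.11). The 4 markers of intestinal epithelium on the chip summed to 1343.4, 1976.5 and 1716 on pools 1, 2 and 3, with 853.2 on vehicle. Both tested ones, Fabp2 and Cdx2, were highest on pool 2, as most members of the sterol pathway were. Most of this sum on every chip was Fabp2, the intestinal fatty acid binding protein. It had 1081.8, 1488.1 and 1423.2 on the treated pools, against 533.2 (log2 difference 1.28, limma adjusted p = 0.063). Cdx2 overlapped with vehicle and was lower in the mean, with 156.8, 242.9 and 176.2, against 209.7 (log2 difference -0.14). The part of these cells in the values of the sterol enzymes was not tested, and in pooled tissue fewer cells of a type and less RNA per cell cannot be told apart.

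The other enzymes of cholesterol synthesis gave a like picture. Of 12 listed, 10 had a tested probe set. Of the 10, 5 were higher and 5 lower in the mean, 4 were above vehicle on all treated chips and 2 below, and none passed in either direction. Of all genes tested, 25.2% were above vehicle on all treated chips and 24.0% below. The median log2 difference of the 10 genes was 0.06. Nsdhl, a sterol dehydrogenase that removes the methyl groups at carbon 4, had 239, 352.8 and 297.5 on pools 1, 2 and 3, with 395.8 on vehicle, a log2 difference of -0.41 (95% interval -1.04 to 0.21). Lbr, the lamin B receptor, which is also a sterol reductase acting directly after Cyp51, had 256.1, 260.1 and 320.3 on the treated pools, against 204, a difference of 0.42 (95% interval -0.23 to 1.06). Tm7sf2, a reductase that acts at the same step as Lbr, had 1118.3, 843.3 and 840.7 on the treated pools, against 765.9. Msmo1, the methyl sterol oxidase that works with Nsdhl, had 653.6, 1212.9 and 1193.2 on the treated pools, against 854.6, with the lowest value on pool 1. Sc5d was, with Nsdhl, the other gene below vehicle on all treated chips, with 547.1, 758.1 and 620.4, against 785. Its dimmer probe set overlapped with vehicle. Pool 2 was the highest treated pool for 4 of these 10 genes, and whether that share differs from the members' 7 of 8 was not tested.

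The machinery that senses sterol and activates SREBP gave no call. Of 7 genes tested, the treated mean was above vehicle for 6, and for 3 of these every treated chip was, without any passing the threshold. Of all genes tested, 49.8% had a treated mean above vehicle and 25.2% had every treated chip above it. The median log2 difference of the 7 genes was 0.09. Srebf2, which encodes SREBP-2, had 1615, 1588.8 and 1701.2 on pools 1, 2 and 3, with 1629.5 on vehicle, a log2 difference of 0.0042 (95% interval -0.38 to 0.39). Srebf1, its relative that serves fatty acid genes, had 721.6, 675.5 and 651.7 on the treated pools, against 655.9, and by a dimmer probe set 424.7, 404.9 and 405.3, against 468.2. Its brighter probe set overlapped with vehicle and its dimmer one lay below it throughout. Insig1, which holds SREBP in the endoplasmic reticulum and is itself an SREBP target, had 3079.5, 2757.6 and 3424.2 on the treated pools, against 2556.7, a difference of 0.26 (95% interval -0.12 to 0.65). It was above the vehicle chip on all treated chips, but pool 2 was its lowest treated value. Insig2, the second retention protein, had 174.9, 290.7 and 383.7 on the treated pools, against 345, so the groups overlapped.

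Among genes that draw on farnesyl diphosphate for other products, 4 of 8 were tested and none passed. Pdss2, a subunit of the enzyme that makes the ubiquinone tail, had 198.6, 192.4 and 211.8 on pools 1, 2 and 3, with 279.5 on vehicle, all treated values below it, at a log2 difference of -0.45 (95% interval -1.14 to 0.24). Fntb, the beta subunit of protein farnesyltransferase, had 501.2, 361 and 376.4 on the treated pools, against 458.8. Of the sterol uptake and transport genes, 4 of 10 were tested, 2 higher and 2 lower in the mean, and none passed. Lipa, the lysosomal lipase that frees cholesterol from its esters, had 370.8, 362.4 and 344.6, all below 452.3 on the vehicle chip, a difference of -0.32 (95% interval -0.85 to 0.21). Soat1, which esterifies cholesterol for storage, had 589.6, 949.1 and 820.6 on the treated pools, against 692.5.

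On the side of efflux and breakdown, 5 of 8 efflux and LXR target genes and 2 of 6 sterol-degrading enzymes were tested, and none passed. Apoe, the carrier of effluxed cholesterol, had 580, 615.6 and 658 on pools 1, 2 and 3, with 488.8 on vehicle, a log2 difference of 0.33 (95% interval -0.14 to 0.80). Mylip, a ubiquitin ligase induced by LXR, had 192.8, 282.2 and 243.8 on the treated pools, against 302.1, a difference of -0.33 (95% interval -1.02 to 0.35). Both kept 1 side of the vehicle chip on every treated chip, Apoe above and Mylip below. Cyp27a1, the mitochondrial sterol 27-hydroxylase, had 442.1, 528.5 and 562.6 on the treated pools, against 433.5, and Hsd3b7, of bile acid synthesis, had 392.4, 392.7 and 456.2, against 444.3. The list medians were -0.04 for efflux and 0.06 for breakdown.

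**Figure D4:**
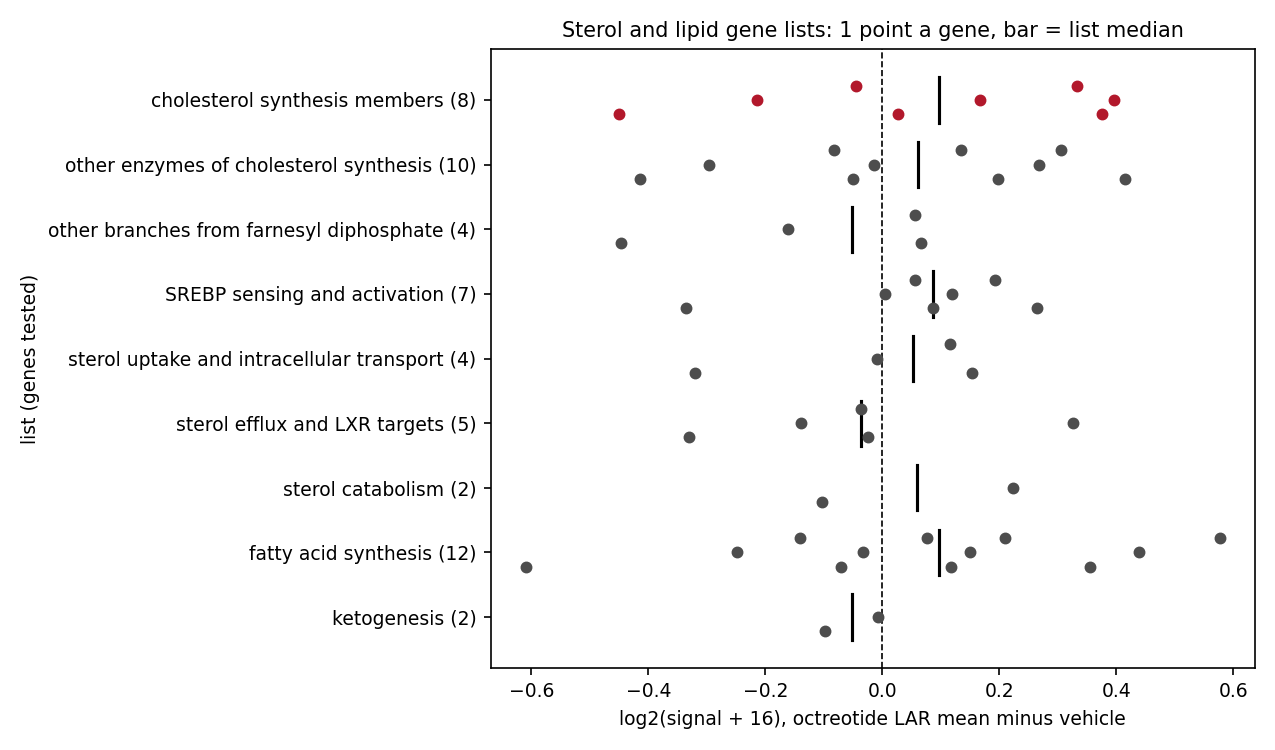
Log2 difference, octreotide LAR mean minus vehicle (x axis), of each tested gene by its brightest probe set in the sterol and lipid lists (y axis, number of genes in brackets); black bars are list medians. The members spread from -0.45 to 0.40 around a median of 0.10. The other lists straddle 0 except ketogenesis, whose 2 tested genes lie just below it.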

How the data were processed

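Gene expression was measured on 4 Affymetrix RAE230A chips. The authors deposited a linear intensity for each probe set on each chip; its algorithm and its scaling target were not given in the sources used here. The 2%-trimmed means lay between 496.8 and 497.2 on all chips, as after scaling to 1 target, which hides any change in total mRNA. Per the file headers the chips shared a lot and wash protocol, with a fluidics module each. Groups came from the sample titles. Detection calls were not used here.

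Probe sets were named by the platform annotation, updated through Entrez IDs with the GRCr8 gene table (12748 of 12783 matched). The 312 probe sets annotated to several genes were left unnamed. Signals were taken as log2(signal + 16), probe sets under the 40th percentile of mean signal (149.7) were left out, and the others were tested with limma 3.58.1 in R 4.3.3 (trended eBayes, two-sided, Benjamini-Hochberg over 9520 probe sets, 2 residual and 10.7 prior degrees of freedom). The fit takes its spread from the treated chips and assumes the same for the single vehicle chip. The number of chips limits precision. The members and lists were chosen with earlier results of these data known. The text names all members, the 2 genes of smallest p in each pathway list, and fixed genes such as Srebf2. Others were chosen after their values were seen: Tm7sf2, Msmo1, Sc5d, Kcnq1, Kcne2, Cym, Pga5, Cblif, Fabp2, Cdx2 and, below, Thrsp, Scd and the fat cell markers. Alternatives changed pseudocount, filter, scaling, moderation, probe set choice and the treated pools used.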

Additional observations from a re-analysis of the deposited data

How the results depend on the processing

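No member probe set passed under any of the alternatives run with limma (pseudocounts of 1 and 64, no filter, a 60th percentile filter, a filter on the mean log2 signal chosen after seeing the data, quantile normalization, centring on the 75th percentile, no trend, and each treated pool left out). The count over all probe sets, 8 in the report, was 5 with a pseudocount of 64, 0 with no filter, 4 with quantile normalization, 5 with centring and 0 without the trend; it ran from 30 to 65 when a treated pool was left out. Those fits keep the same vehicle chip, so their larger counts are no firmer evidence. The member median ran from -0.016 without pool 2 to 0.20 without pool 3. The sign of Lss turned without pool 2 (-0.10) and with the mean of its probe sets (-0.020); its range without a pool was -0.10 to 0.13. The other 7 genes kept their sign in these alternatives, by the brightest probe set or the mean of probe sets, wherever they were tested. By the dimmer probe set alone, Idi1 (0.01) and Fdft1 (0.03) had the opposite sign to the brighter one (-0.04 and -0.21). The 60th percentile filter left out Mvd. No paired analysis was possible because the 8 vehicle animals were pooled onto 1 chip.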

Other observations

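Genes of fatty acid synthesis, many of them targets of SREBP-1, were not called either. All 12 listed genes were tested, 7 higher and 5 lower in the mean, with a median log2 difference of 0.10. Elovl5, an elongase of polyunsaturated fatty acids, had 765.3, 876.7 and 979.9 on octreotide LAR pools 1, 2 and 3, with 577.5 on vehicle, a log2 difference of 0.58 (95% interval 0.11 to 1.04; limma unadjusted p = 0.019, adjusted p = 0.9998). Fasn, the fatty acid synthase, had 1443.5, 1181 and 1221 on the treated pools, against 937.9, a difference of 0.44 by its brighter probe set (95% interval 0.01 to 0.87; limma unadjusted p = 0.046, adjusted p = 0.9998). The dimmer Fasn probe set had 690.4, 326.4 and 456.5, against 444.3, so its groups overlapped. A dimmer probe set of Elovl5 overlapped too, with 200.9, 221.7 and 131.7 on the treated pools, against 141.6. Of 4 ketogenesis genes, 2 were tested: Acat1, mitochondrial thiolase, had 4465.4, 3756.2 and 4234.9 on the treated pools, against 4434.1, and Bdh1, the ketone body dehydrogenase, had 572.6, 424.8 and 496.4, against 496.7, and neither passed. The dimmer Bdh1 probe set had 206.6, 224.8 and 158.4, all below 308.8 on the vehicle chip, a difference of -0.62 (95% interval -1.35 to 0.10; limma unadjusted p = 0.086, adjusted p = 0.9998).

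Thrsp and Scd differed more between the treated pools than between the group means, and in another order than most members of the sterol pathway. Thrsp, a nuclear protein of lipogenic tissue, had 523.4, 39.4 and 208.1 on pools 1, 2 and 3, with 271.6 on vehicle, and Scd, the stearoyl-CoA desaturase, had 1012.6, 273.8 and 741.8, against 510.7. Both were highest on pool 1 and lowest on pool 2, as were a pair of dimmer Thrsp probe sets, with 403.6, 135 and 175.2, against 132.7, and 167.9, 28.9 and 101.9, against 46.3. Of the 3 fat cell markers on the chip, Cfd, adipsin, had that order, with 363.5, 86.3 and 197.3 on the treated pools, against 216.8 on the vehicle chip. Plin1, which coats lipid droplets, had 86.5, 140 and 18.6, against 90.8, and Lep, leptin, had 16.4, 26.6 and 13, against 14.4. These last, both under the filter level, were highest on pool 2 and lowest on pool 3. The part of fat cells in the values of Thrsp and Scd was not tested. By the brightest probe set, 7 of the 8 members had their highest treated value on pool 2. The same held for 4 of the 10 other enzymes of cholesterol synthesis and for 33.0% of all genes tested.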
